A study of Mus musculus with 12 samples.

Results

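The major urinary protein (Mup) family was followed through liver RNA-seq of mice given fenofibrate on a high-fat diet, a high-fat diet alone or a normal diet. Its members were all rows of the deposited count tables whose gene name begins with Mup: 41 of 25164 genes, made up of 21 genes and 20 pseudogenes. They lay together on chromosome 4 at chr4:59956804-62150863 (GRCm38), a span of 2.19 Mb. The Fenofibrate group (high-fat diet for 14 weeks, with fenofibrate by gavage for the last 4 weeks), the HFD group (high-fat diet for 14 weeks) and the Control group (normal diet for 14 weeks) each had 4 liver libraries, from groups to which 10 mice had been assigned. Fenofibrate, used to lower blood lipids, is an agonist of the nuclear receptor PPARα; Fenofibrate and HFD mice shared the diet and differed in the drug. Strain, sex and age are not given in the labels, nor whether each library came from 1 mouse, so the p-values rest on the variation among these libraries, which may be technical. Total counts ran from 15797016 to 18514481 per library.

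Major urinary proteins are small lipocalins, barrel-shaped carriers that hepatocytes secrete into the blood and that pass through the kidney into urine, where they bind and release pheromones. In mouse liver their genes are more active in males, and pulses of growth hormone acting through STAT5B drive them. The family consists of a central block of recently duplicated, nearly identical genes flanked by older, more divergent peripheral genes.

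The counts of single copies have to be read beside their sequences. Coding sequences of the 15 central genes (Mup1, Mup2 and Mup7 to Mup19) were 98.3 to 99.8% identical in pairs (GENCODE M21), whereas the 6 peripheral genes (Mup3, Mup4, Mup5, Mup6, Mup20 and Mup21) were 82.7 to 94.7% identical to each other. Of the distinct windows of 100 bases in its transcripts, a central gene had between 0% (Mup19) and 44.3% (Mup1) that occurred in no other gene, with a median of 24.3%. Mup17 had 40.6% and Mup15 had 2.66%. For the peripheral genes that share was 61.2% in Mup20, 95.5% in Mup21 and 97.8% in Mup3. The sources used here do not give how reads that match several copies were counted, so reads of 1 central copy or pseudogene may stand at another, and values of single central copies are uncertain.

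Promoter windows of RefSeq (GRCm38.p6; 250 bases before to 50 after the start site) matched 14 of the 21 genes; Mup1, Mup5, Mup8, Mup12, Mup13, Mup16 and Mup20 had none. The stretch of 72 aligned bases shown here is given because Mup17 and Mup15, the genes that differed most between HFD and Control libraries, shared a base in it that no other matched promoter had. It was the only such base among 152 aligned positions without a gap, and it was looked for after the expression values were known. Positions count from 1 at the 5′ end of the stretch, and Mup17 is taken as the comparison sequence. Capitals mark in Mup17 and Mup15 the shared base at position 15, and in the others each base that differs from Mup17.
Mup17 (chr4:61596003-61596074, minus strand): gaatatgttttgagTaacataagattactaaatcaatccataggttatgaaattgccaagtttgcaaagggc
Mup15 (chr4:61439873-61439944, minus strand): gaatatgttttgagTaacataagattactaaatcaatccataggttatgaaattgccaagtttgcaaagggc
Mup18 (chr4:61674261-61674332, minus strand): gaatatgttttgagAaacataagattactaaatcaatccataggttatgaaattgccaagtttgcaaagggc
Mup7 (chr4:60070517-60070588, minus strand): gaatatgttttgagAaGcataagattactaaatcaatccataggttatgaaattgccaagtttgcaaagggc
Mup3 (chr4:62087439-62087510, minus strand): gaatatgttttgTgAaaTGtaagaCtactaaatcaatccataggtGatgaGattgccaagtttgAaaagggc
Mup21 (chr4:62150957-62151028, minus strand): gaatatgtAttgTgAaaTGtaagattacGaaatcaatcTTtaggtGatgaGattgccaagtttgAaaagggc
Every one of the other 12 promoters carried the change T15A. Mup18, Mup14, Mup11, Mup9 and Mup2 had that change and no other in the stretch, while Mup3 had 8 differences and Mup21 had 11. On either strand of these windows, the STAT5 motif TTCNNNGAA was found in 0 of 14 Mup promoters, against 8.30% of all promoters in the RefSeq table, and the C/EBP motif TTGCGCAA in 0 of 14, against 0.183%. The TATA motif TATAAA was found in 2 of 14 (Mup4 and Mup6), against 13.6%. The letters TATATAA, searched for after the sequences had been seen, stood in 13 of 14 Mup promoters and in 3.24% of all promoters. The window of Mup7 lacked them, but it ended before the place where they stood in the other promoters. Whether Mup7 has them there is therefore not shown. TATATAA and TATAAA can overlap. These are matches of letters only.

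Markers of other cell types differed between libraries and, for some, between groups. The summed level of 12 pancreatic acinar markers was 2188 CPM (counts scaled to the library's total) in Fenofibrate library 1 and 9.02 to 13.9 CPM in the other Fenofibrate libraries, 18.2 to 31.1 CPM in HFD and 6.24 to 9.92 CPM in Control libraries. The erythroid sum was 1185 CPM for Fenofibrate library 1, with 202 to 484 CPM for the remaining 11 libraries. The 5 B and plasma cell markers were highest in HFD libraries, at 20.1 to 30.1 CPM in Fenofibrate, 36.8 to 50.6 CPM in HFD and 17.4 to 35.2 CPM in Control libraries; 1 of the 5 was lower in Fenofibrate against HFD and 1 was higher in HFD against Control libraries. Striated muscle markers (5 of 6 in the tables) summed to 159 and 122 CPM in Fenofibrate libraries 1 and 3 and to at most 0.906 CPM in each of the others. HFD library 1 had the lowest endothelial sum (110 CPM) and the lowest macrophage sum (126 CPM) of all libraries. The other HFD libraries had 212 to 229 CPM and 279 to 320 CPM. HFD library 1 was also the library with the highest Mup share (3.27% of all counts). The 10 hepatocyte markers, Alb and Apoa1 among them, summed to 116823 to 134994 CPM in Fenofibrate, 126557 to 138250.0 CPM in HFD and 134047 to 145707 CPM in Control libraries, and 2 of the 10 were lower in Fenofibrate against HFD libraries. In bulk tissue, fewer hepatocytes and less RNA per hepatocyte cannot be told apart. The part of these markers in the Mup results was not tested; values without Fenofibrate libraries 1 and 3 are given where they change a count or a call.

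Mup reads were fewest with fenofibrate and most with the high-fat diet alone. The 41 rows together took 0.737, 1.52, 0.849 and 1.26% of all counts in the Fenofibrate libraries, 3.27, 2.98, 2.77 and 2.62% in the HFD libraries and 1.69, 1.53, 2.03 and 2.01% in the Control libraries. No group overlapped another, although the highest Fenofibrate library (1.521%) came close to the lowest Control library (1.529%). The means were 1.09 ± 0.364% in Fenofibrate, 2.91 ± 0.283% in HFD and 1.81 ± 0.246% in Control libraries (SD, n = 4 each). As log2 ratios of group means, the family total was -1.41 for Fenofibrate over HFD, 0.68 for HFD over Control and -0.73 for Fenofibrate over Control. These totals are a description with no test, since the family was chosen with earlier results known. Fenofibrate libraries 1 and 3, those with muscle transcripts, were the 2 lowest of their group; without them the ratio was -1.06 over HFD and -0.38 over Control.

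**Figure D1:**
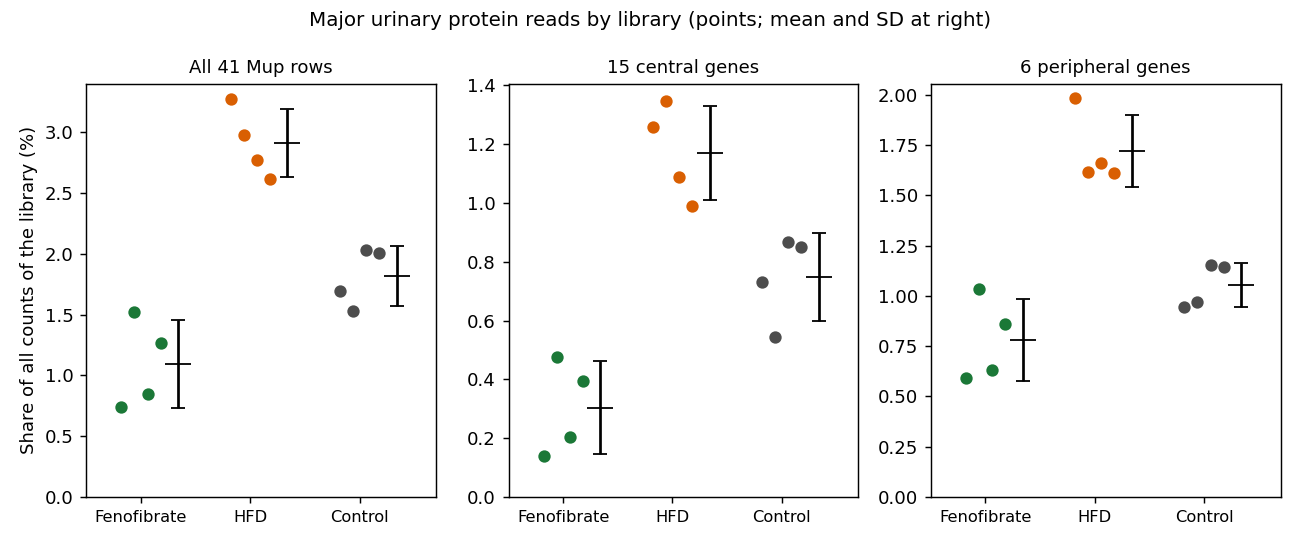
Share of all counts taken by Mup rows (y axis, %) in each of 12 libraries, for all 41 rows, the 15 central genes and the 6 peripheral genes; points are libraries, and the bar at the right of each group is its mean with SD (n = 4). HFD libraries (2.62 to 3.27%) lie above Fenofibrate (0.737 to 1.52%) and Control libraries (1.53 to 2.03%) in the first panel, and the same order holds for the central genes.

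Central and peripheral genes kept the same order of groups. Central genes took 0.304 ± 0.158% of counts in Fenofibrate, 1.17 ± 0.161% in HFD and 0.748 ± 0.149% in Control libraries, and peripheral genes took 0.780 ± 0.206% in Fenofibrate, 1.72 ± 0.179% in HFD and 1.05 ± 0.110% in Control libraries (SD, n = 4 each). Fenofibrate and Control libraries overlapped in the peripheral share (up to 1.03% in Fenofibrate, and from 0.946% in Control libraries) but not in the central share (up to 0.476% in Fenofibrate, and from 0.544% in Control libraries). The 20 pseudogenes together made up 0.00816 ± 0.00353% in Fenofibrate, 0.0214 ± 0.00627% in HFD and 0.0131 ± 0.00283% in Control libraries.

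Of the 41 members, 27 had enough counts to be tested (15 central genes, 3 peripheral genes and 9 pseudogenes) in a fit of 13477 genes with edgeR's quasi-likelihood test; a member is said to have risen or fallen where its Benjamini-Hochberg adjusted p over all 13477 genes was under 0.05. Fold changes are log2 values ± SE, and levels of single members are CPM scaled by the TMM method. The 3 comparisons share libraries, so their results are not independent of each other.

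With fenofibrate on the high-fat diet, Mup transcripts fell almost throughout the family. In Fenofibrate against HFD libraries 25 of 27 tested members were lower, a call that 6.59% of all tested genes received. None was higher by edgeR (0 at an unadjusted p under 0.05, and 0 by DESeq2 and by limma-voom), against 6.88% of all tested genes. The median log2 fold change was -1.89 over the 27 tested members and 0.01 over all tested genes. All 15 central genes fell, by 0.94 to 3.24 on the log2 scale, as did Mup3, Mup20 and Mup21, by 1.04 to 1.70. Of the 9 tested pseudogenes 7 fell, and Mup-ps6 and Mup-ps16 did not pass. Fenofibrate and HFD libraries did not overlap for 24 of the 27, a count with no share over all tested genes to set beside it. The tested set includes Mup-ps12, Mup-ps14 and Mup-ps20, which had enough reads only in HFD libraries; leaving them out, 22 of 24 were lower, with a median of -1.81. Without Fenofibrate libraries 1 and 3 the count was 14 of 27: Mup1, Mup8, Mup10, Mup11, Mup13, Mup20, Mup-ps7, Mup-ps8, Mup-ps13, Mup-ps14 and Mup-ps19 no longer passed.

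With the high-fat diet alone part of the family rose. In HFD against Control libraries 14 of 27 tested members were higher, against 6.13% of all tested genes. The groups did not overlap for any of these 14, though that goes with being called and has no share over all tested genes beside it. None was lower (0 by DESeq2 and by limma-voom; 1 by edgeR at an unadjusted p under 0.05), against 6.64% of all tested genes. The median log2 fold change was 0.85 over the tested members and -0.02 over all tested genes. The risen members were 7 of 15 central genes (Mup2, Mup9, Mup11, Mup15, Mup17, Mup18 and Mup19), 2 of 3 tested peripheral genes (Mup3 and Mup21) and 5 of 9 tested pseudogenes (Mup-ps7, Mup-ps12, Mup-ps13, Mup-ps14 and Mup-ps20). Leaving out Mup-ps12, Mup-ps14 and Mup-ps20, which had enough reads only in HFD libraries, 11 of 24 were higher, with a median of 0.77. Leaving out 1 library at a time gave 10 to 14 of 27.

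Between Fenofibrate and Control libraries the members differed in both directions. Lower with fenofibrate were 8 of 27, against 4.33% of all tested genes: Mup1, Mup7, Mup12, Mup13, Mup14, Mup16, Mup-ps6 and Mup-ps8. Mup17 alone was higher, against 4.86% of all tested genes. The median log2 fold change was -0.65 over the tested members and -0.01 over all tested genes. This count depended on single libraries: 13 members were lower without Fenofibrate library 2, 5 without Fenofibrate library 1, Fenofibrate library 3 or Control library 3, and 3 without Fenofibrate libraries 1 and 3 together, when Mup13, Mup14, Mup16, Mup-ps6 and Mup-ps8 no longer passed.

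In order along the chromosome, the response to the diet was uneven. Of the 13 tested rows from Mup7 to Mup14, 4 were higher in HFD than in Control libraries, with a median log2 fold change of 0.59. Of the 14 tested rows from Mup15 to Mup21, 10 were higher, with a median of 1.62 (7 of 11, with a median of 1.04, without Mup-ps12, Mup-ps14 and Mup-ps20). With fenofibrate over HFD, 12 of those 13 and 13 of those 14 fell, with medians of -1.81 and -1.90. The division at Mup15 was chosen after the values were seen, and neighbouring copies share sequence, so these counts are a description.

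**Figure D2:**
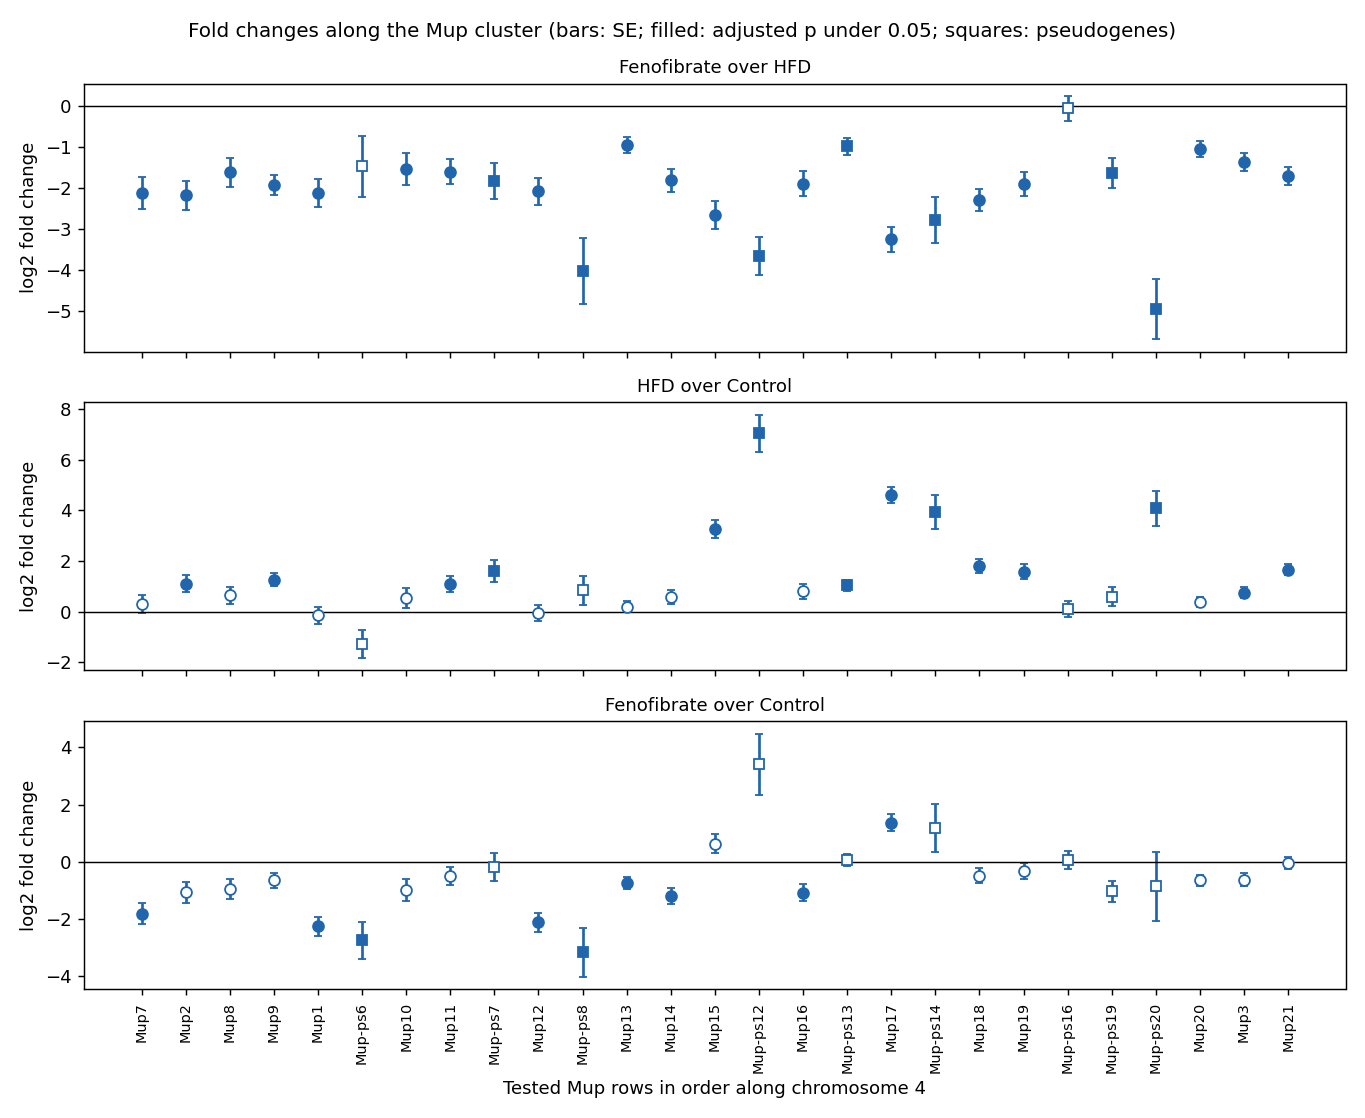
Log2 fold changes (y axis) of the 27 tested Mup rows in their order along chromosome 4 (x axis), for Fenofibrate over HFD, HFD over Control and Fenofibrate over Control; bars are SE, filled symbols passed an adjusted p under 0.05, circles are genes and squares pseudogenes. In the first panel 25 of 27 are filled and below 0; in the second the highest values belong to Mup-ps12, Mup17, Mup-ps20, Mup-ps14 and Mup15.

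Mup3, a peripheral gene, was the most abundant member, and over the 12 libraries it was the 11th most abundant gene by mean CPM. Mup3 (ENSMUSG00000066154, chr4:62083476-62087342, minus strand) had 3514, 7339, 3524 and 6189 CPM in the Fenofibrate libraries, 16686, 11422, 11983 and 13034 CPM in the HFD libraries and 6605, 8418, 8307 and 8398 CPM in the Control libraries. The HFD libraries were above all others, and Fenofibrate and Control libraries overlapped, Fenofibrate libraries 1 and 3 being the lowest of the 12. It fell with fenofibrate over HFD (-1.37 ± 0.22, adjusted p = 0.00206) and rose with the diet (0.74 ± 0.22, adjusted p = 0.0347). Fenofibrate over Control was -0.63 ± 0.22 (adjusted p = 0.0851), and passed without Fenofibrate library 2 (adjusted p = 0.0165) and by DESeq2 (adjusted p = 0.0385). The rise with the diet was close to the threshold: without any 1 of Control libraries 1 to 4, HFD library 1 or HFD library 4, the adjusted p was 0.0551 to 0.103.

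Mup20, which encodes darcin, a male pheromone protein that attracts females, is another peripheral gene (ENSMUSG00000078672, chr4:62050234-62054158, minus strand). It had 1692, 2908, 1843 and 1551 CPM in the Fenofibrate libraries, 5031, 4310.0, 3752 and 3314 CPM in the HFD libraries and 2782, 2456, 3590.1 and 3699 CPM in the Control libraries. Every Fenofibrate library was below every HFD library, while HFD and Control libraries overlapped. Mup20 fell with fenofibrate over HFD (-1.04 ± 0.20, adjusted p = 0.00489). HFD over Control was 0.39 ± 0.20 (adjusted p = 0.222) and Fenofibrate over Control -0.65 ± 0.20 (adjusted p = 0.0528). The last of these passed without Control library 1, Control library 2, Fenofibrate library 2 or HFD library 1 (adjusted p of 0.00496 to 0.0494), by DESeq2 (0.0159) and by limma-voom (0.0407). Its value over HFD was -0.87 ± 0.25 (adjusted p = 0.123) without Fenofibrate libraries 1 and 3.

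The third tested peripheral gene, Mup21 (ENSMUSG00000066153, chr4:62147932-62150863, minus strand), had 79.2, 186, 90.9 and 115 CPM in the Fenofibrate libraries, 433, 423, 335 and 338 CPM in the HFD libraries and 101, 109, 141 and 131 CPM in the Control libraries. HFD libraries stood clear of both other groups, which overlapped. Mup21 rose with the diet (1.67 ± 0.22, adjusted p = 0.000152) and fell with fenofibrate over HFD (-1.70 ± 0.22, adjusted p = 0.000573). Fenofibrate over Control was -0.03 ± 0.21 (adjusted p = 0.948), with a sign that turned in 5 alternatives. Of its windows of 100 bases, 95.5% occur in no other gene. Mup4 and Mup5, known mainly from glands of the nose and mouth, and Mup6 were near 0 here, with at most 2, 2 and 11 counts in a library.

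Among the central genes Mup17 had the largest changes in both comparisons with HFD libraries. Mup17 (ENSMUSG00000096688, chr4:61591929-61595871, minus strand) had 61.0, 149.6, 55.1 and 144 CPM in the Fenofibrate libraries, 891, 1331, 980.0 and 683 CPM in the HFD libraries and 40.2, 32.4, 41.1 and 44.7 CPM in the Control libraries, which were 1237, 2497, 1134 and 2934 reads in Fenofibrate, 13214, 22632, 15987 and 11028 reads in HFD and 719, 501, 662 and 720 reads in Control libraries. No group overlapped another. Mup17 rose with the diet (4.62 ± 0.33, adjusted p = 8.23e-07), fell with fenofibrate over HFD (-3.24 ± 0.31, adjusted p = 4.87e-05) and was still higher in Fenofibrate than in Control libraries (1.37 ± 0.29, adjusted p = 0.0088). All 3 calls stood in each of the 21 alternative fits of each comparison.

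Mup15, which shares with Mup17 the base at position 15 of the printed promoter stretch, had the same order of group means. It (ENSMUSG00000096674, chr4:61435790-61439743, minus strand) had 32.9, 109, 49.0 and 80.7 CPM in the Fenofibrate libraries, 488, 510.3, 378 and 323 CPM in the HFD libraries and 46.5, 21.6, 47.1 and 59.7 CPM in the Control libraries. HFD libraries lay above all others, and Fenofibrate and Control libraries overlapped. Mup15 rose with the diet (3.28 ± 0.35, adjusted p = 2.93e-05) and fell with fenofibrate over HFD (-2.65 ± 0.34, adjusted p = 0.000573), while Fenofibrate over Control was 0.63 ± 0.32 (adjusted p = 0.243). Only 2.66% of its windows of 100 bases occur in no other gene, so few of its reads can be told apart from those of other copies. In coding sequence its nearest copy was Mup2 (99.6% identical), and those of Mup17 were Mup9 and Mup13 (99.3% for each).

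**Figure D3:**
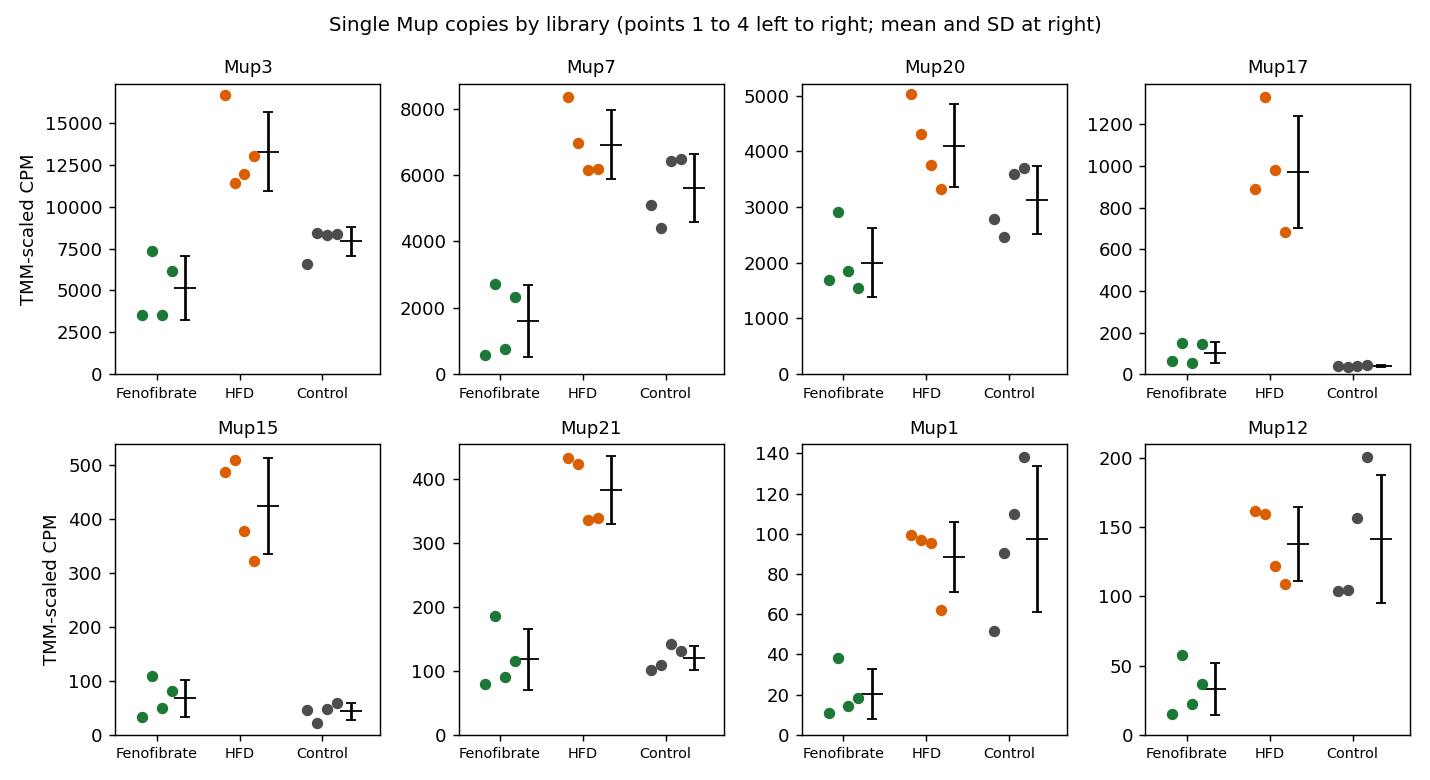
TMM-scaled CPM (y axis, starting at 0, with its own scale in each panel) of 8 Mup genes in each library; points are libraries 1 to 4 from left to right, and the bar at the right of each group is its mean with SD (n = 4). Mup3, Mup17, Mup15 and Mup21 have their 4 HFD libraries above the 8 others, whereas for Mup7, Mup20, Mup1 and Mup12 HFD and Control libraries overlap.

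Mup18 and Mup19 are central copies on the same side of the cluster as Mup15 and Mup17. Mup18 had 23.6, 58.5, 31.6 and 41.5 CPM in the Fenofibrate libraries, 206, 234, 201 and 118 CPM in the HFD libraries and 53.6, 35.2, 69.7 and 59.8 CPM in the Control libraries. Its HFD libraries lay above the 8 others. It rose with the diet (1.80 ± 0.27, adjusted p = 0.000506) and fell with fenofibrate over HFD (-2.29 ± 0.27, adjusted p = 0.000305); Fenofibrate over Control was -0.49 ± 0.26 (adjusted p = 0.263). For Mup19, which has no window of 100 bases of its own, the levels were 63.0, 213, 82.0 and 147 CPM in the Fenofibrate libraries, 536, 536, 482 and 331 CPM in the HFD libraries and 155, 144, 184 and 147 CPM in the Control libraries. Here too HFD libraries were highest. Mup19 rose with the diet (1.58 ± 0.29, adjusted p = 0.00208) and fell with fenofibrate over HFD (-1.90 ± 0.29, adjusted p = 0.00152), with -0.32 ± 0.28 over Control (adjusted p = 0.519).

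Mup7 was the most abundant central gene. Mup7 (ENSMUSG00000073842, chr4:60066469-60070475, minus strand) had 576, 2712, 772 and 2334 CPM in the Fenofibrate libraries, 8367, 6975, 6154 and 6197 CPM in the HFD libraries and 5103, 4401, 6438 and 6480.2 CPM in the Control libraries. HFD and Control libraries overlapped, and the Fenofibrate libraries lay below both groups, with libraries 1 and 3 far below libraries 2 and 4. It fell with fenofibrate over HFD (-2.11 ± 0.38, adjusted p = 0.00372) and over Control (-1.81 ± 0.38, adjusted p = 0.00734), while HFD over Control was 0.30 ± 0.36 (adjusted p = 0.643). Mup14, next in abundance, had 271, 881, 503 and 454 CPM in the Fenofibrate libraries, 2059.6, 2398, 1252 and 1652 CPM in the HFD libraries and 1265, 924, 1295 and 1398 CPM in the Control libraries. Its Fenofibrate libraries were all lower than the 8 others. The fall was -1.80 ± 0.28 over HFD (adjusted p = 0.00188) and -1.21 ± 0.28 over Control (adjusted p = 0.0134), of which the second was lost without Fenofibrate libraries 1 and 3, at -0.86 ± 0.28 (adjusted p = 0.137); HFD over Control was 0.59 ± 0.28 (adjusted p = 0.181).

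Mup1 and Mup12 form the other end of the range among central genes: they fell with fenofibrate and did not pass with the diet. Mup1, whose protein has been tied to glucose and energy metabolism in mice, had 10.7, 38.5, 14.4 and 18.3 CPM in the Fenofibrate libraries, 99.3, 97.1, 95.3 and 62.2 CPM in the HFD libraries and 51.7, 90.6, 109.6 and 138 CPM in the Control libraries. All 4 Fenofibrate libraries were below the 8 others. It fell by 2.12 ± 0.34 on the log2 scale over HFD (adjusted p = 0.00227) and by 2.26 ± 0.35 over Control (adjusted p = 0.00103), with HFD over Control at -0.14 ± 0.33 (adjusted p = 0.831). Mup12, the nearest copy to Mup1 in coding sequence (99.6% identical), had 14.8, 57.4, 22.3 and 36.9 CPM in the Fenofibrate libraries, 162, 159, 122 and 109 CPM in the HFD libraries and 104, 105, 157 and 200.3 CPM in the Control libraries. The groups stood as for Mup1. Mup12 fell over HFD (-2.07 ± 0.33, adjusted p = 0.00196) and over Control (-2.11 ± 0.33, adjusted p = 0.0012), and HFD over Control was -0.04 ± 0.31 (adjusted p = 0.958). With Fenofibrate libraries 1 and 3 left out, Mup1 was at -1.64 ± 0.36 (adjusted p = 0.0532) over HFD. The sign of the diet difference turned for Mup1 without Control library 4 and for Mup12 in 5 alternatives.

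Mup11 and Mup10 are adjacent genes of the central block. Mup11 had 96.5, 364, 152 and 179.6 CPM in the Fenofibrate libraries, 737, 710.4, 477 and 471 CPM in the HFD libraries and 274, 212, 363 and 269.8 CPM in the Control libraries. HFD libraries were above all others. It rose with the diet (1.10 ± 0.31, adjusted p = 0.0282; 0.06 to 0.0729 without Control library 1, 2 or 4 or HFD library 1 or 2), and it fell with fenofibrate over HFD (-1.60 ± 0.31, adjusted p = 0.00512), while Fenofibrate over Control was -0.50 ± 0.30 (adjusted p = 0.331; 0.0168 without Fenofibrate library 2). Mup10 had 26.7, 94.4, 24.4 and 64.1 CPM in the Fenofibrate libraries, 205, 149, 170.5 and 77.2 CPM in the HFD libraries and 87.9, 63.5, 142 and 122 CPM in the Control libraries. Its groups overlapped in every comparison. Mup10 fell with fenofibrate over HFD (-1.52 ± 0.39, adjusted p = 0.0218), a call lost without Fenofibrate library 1, Fenofibrate library 3 or HFD library 1 (adjusted p of 0.0619 to 0.0737). HFD over Control was 0.53 ± 0.38 (adjusted p = 0.411) and Fenofibrate over Control -0.99 ± 0.39 (adjusted p = 0.128; 0.0257 without Fenofibrate library 2). Neither fall over HFD passed without Fenofibrate libraries 1 and 3, at -1.14 ± 0.29 (adjusted p = 0.0903) for Mup11 and -0.92 ± 0.35 (adjusted p = 0.235) for Mup10.

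Mup13 had the smallest fall of the central genes with fenofibrate over HFD. Its levels were 35.6, 63.0, 32.8 and 40.9 CPM in the Fenofibrate libraries, 75.5, 106, 69.8 and 79.4 CPM in the HFD libraries and 60.8, 58.0, 92.6 and 75.5 CPM in the Control libraries. Fenofibrate libraries were below HFD libraries and overlapped Control libraries. It fell over HFD (-0.94 ± 0.20, adjusted p = 0.00872) and over Control (-0.74 ± 0.20, adjusted p = 0.0323; 0.0773 to 0.116 without Control library 3 or 4 or Fenofibrate library 1, 3 or 4), and HFD over Control was 0.21 ± 0.20 (adjusted p = 0.554). Mup16 had 16.5, 38.6, 13.4 and 30.7 CPM in the Fenofibrate libraries, 115, 108, 78.4 and 64.8 CPM in the HFD libraries and 48.8, 33.5, 70.7 and 56.9 CPM in the Control libraries. Again only Fenofibrate and HFD libraries were apart. Mup16 fell over HFD (-1.89 ± 0.30, adjusted p = 0.00206) and over Control (-1.08 ± 0.30, adjusted p = 0.034; 0.0799 to 0.106 without Control library 3 or 4 or Fenofibrate library 1 or 3), and HFD over Control was 0.80 ± 0.29 (adjusted p = 0.0869). Without Fenofibrate libraries 1 and 3, Mup13 was at -0.67 ± 0.23 (adjusted p = 0.189) over HFD and -0.45 ± 0.23 (adjusted p = 0.374) over Control, and Mup16 was at -0.59 ± 0.27 (adjusted p = 0.333) over Control. In that alternative the diet difference of Mup16 passed (adjusted p = 0.0297).

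The 3 least abundant central genes were Mup9, Mup2 and Mup8. Mup9 had 8.64, 15.8, 10.6 and 10.2 CPM in the Fenofibrate libraries, 37.5, 69.5, 36.7 and 26.6 CPM in the HFD libraries and 13.9, 18.2, 19.1 and 19.5 CPM in the Control libraries. HFD libraries were highest. It rose with the diet (1.27 ± 0.24, adjusted p = 0.00325) and fell with fenofibrate over HFD (-1.92 ± 0.25, adjusted p = 0.000646), with -0.65 ± 0.25 over Control (adjusted p = 0.124; 0.0385 without HFD library 2). Mup2 had 2.96, 9.17, 2.72 and 9.35 CPM in the Fenofibrate libraries, 29.6, 35.4, 18.9 and 24.2 CPM in the HFD libraries and 8.66, 9.91, 17.0 and 14.9 CPM in the Control libraries. HFD libraries again stood above the rest. Mup2 fell with fenofibrate over HFD (-2.17 ± 0.35, adjusted p = 0.00233); its rise with the diet (1.10 ± 0.34, adjusted p = 0.0432) was lost by DESeq2 (adjusted p = 0.0772) and without any 1 of Control libraries 1, 2 and 4 or HFD libraries 1, 2 and 4 (0.0593 to 0.123). Over Control it was -1.07 ± 0.36 (adjusted p = 0.0761; 0.0375 to 0.0498 without Control library 1, Fenofibrate library 2 or Fenofibrate library 4). Mup8 had 2.91, 7.55, 5.54 and 5.07 CPM in the Fenofibrate libraries, 23.7, 20.8, 10.4 and 9.29 CPM in the HFD libraries and 8.94, 5.44, 11 and 15.3 CPM in the Control libraries. Fenofibrate and HFD libraries did not overlap, and HFD and Control libraries did. It fell over HFD (-1.61 ± 0.35, adjusted p = 0.00962); HFD over Control was 0.65 ± 0.34 (adjusted p = 0.23) and Fenofibrate over Control -0.96 ± 0.35 (adjusted p = 0.105). Its value over HFD was -1.34 ± 0.43 (adjusted p = 0.156) without Fenofibrate libraries 1 and 3.

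Only 2 pseudogenes reached 10 CPM in a group. Mup-ps19 had 31.5, 104, 79.1 and 30.3 CPM in the Fenofibrate libraries, 287, 138, 205 and 125 CPM in the HFD libraries and 107, 144, 81.2 and 167 CPM in the Control libraries. HFD and Control libraries overlapped. It fell with fenofibrate over HFD (-1.63 ± 0.37, adjusted p = 0.0128); HFD over Control was 0.60 ± 0.36 (adjusted p = 0.317) and Fenofibrate over Control -1.03 ± 0.37 (adjusted p = 0.0962; 0.0248 without Fenofibrate library 2). Mup-ps13 had 7.21, 8.15, 5.15 and 10.4 CPM in the Fenofibrate libraries, 17.4, 13.8, 14.1 and 15.5 CPM in the HFD libraries and 5.53, 6.87, 10.7 and 6.40 CPM in the Control libraries. The HFD libraries were above the 8 others. This pseudogene, with 75.8% of its windows of 100 bases in no other gene, rose with the diet (1.04 ± 0.21, adjusted p = 0.00467) and fell with fenofibrate over HFD (-0.98 ± 0.21, adjusted p = 0.00874), with 0.07 ± 0.21 over Control (adjusted p = 0.894). Neither pseudogene passed over HFD without Fenofibrate libraries 1 and 3, at -1.49 ± 0.45 (adjusted p = 0.135) for Mup-ps19 and -0.70 ± 0.23 (adjusted p = 0.165) for Mup-ps13.

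The remaining 7 tested pseudogenes had few reads, and 3 of them, named after their values were seen, were nearly silent in Control libraries. Mup-ps12, Mup-ps14 and Mup-ps20 reached 10 reads in 4 libraries only through HFD libraries, so they could enter the test only where HFD was high, and their values are a description with no test. Mup-ps12, next to Mup15, had 1, 3, 3 and 11 reads in Fenofibrate, 25, 71, 46 and 52 reads in HFD and 0, 0, 1 and 0 reads in Control libraries. Scaled for library size, the HFD sum of 194 was 198 times the Control sum of 1. The Fenofibrate sum of 18 was 15.2 times that Control sum. Both ratios rest on the 1 Control read, so their size is very uncertain. Mup-ps14, next to Mup17, had 4, 3, 3 and 15 reads in Fenofibrate, 24, 55, 26 and 39 in HFD and 0, 2, 7 and 0 in Control libraries. Mup-ps20 had 0, 3, 0 and 0 reads in Fenofibrate, 16, 39, 25 and 12 in HFD and 1, 1, 3 and 0 in Control libraries. Its Fenofibrate sum of 3 was 0.0269 times its HFD sum of 92, again a ratio that rests on few reads. All 4 HFD libraries were above the 8 others for each of these 3, which their choice by HFD reads nearly fixed in advance. All windows of 100 bases in Mup-ps20 and 56.4% of those in Mup-ps12 occur in no other gene.

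Mup-ps7 had 10, 25, 6 and 19 reads in Fenofibrate, 30, 58, 43 and 49 in HFD and 13, 7, 30 and 9 in Control libraries. It passed over HFD (adjusted p = 0.0166; 0.0535 and 0.0619 without Fenofibrate library 1 or 3) and with the diet (adjusted p = 0.0256; 0.063 to 0.073 without Control library 1, 2 or 4 or HFD library 2 or 4). Mup-ps8 had 1, 0, 1 and 3 reads in Fenofibrate, 31, 11, 25 and 6 in HFD and 18, 2, 16 and 6 in Control libraries, lower with fenofibrate over HFD (adjusted p = 0.00585) and over Control (adjusted p = 0.032; 0.0567 to 0.0895 without Control library 1 or 3 or Fenofibrate library 1, 2 or 3). Mup-ps6 had 1, 4, 2 and 1 reads in Fenofibrate, 10, 2, 3 and 4 in HFD and 12, 18, 4 and 14 in Control libraries and was lower over Control only (adjusted p = 0.0144; 0.0503 without Control library 2). Without Fenofibrate libraries 1 and 3 the adjusted p over HFD was 0.231 for Mup-ps7 and 0.123 for Mup-ps8, and that over Control was 0.239 for Mup-ps8 and 0.174 for Mup-ps6. Mup-ps6 and Mup-ps8 reached 10 reads in 0 of the Fenofibrate libraries. Mup-ps16 was the member closest to level: 103, 102, 82 and 99 reads in Fenofibrate, 79, 83, 95 and 74 in HFD and 147, 46, 92 and 34 in Control libraries, with log2 fold changes of -0.04 ± 0.30 over HFD, 0.11 ± 0.31 for HFD over Control and 0.06 ± 0.30 over Control (adjusted p = 0.941, 0.865 and 0.932).

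The 14 members that were not tested, the 3 peripheral genes named above and 11 pseudogenes, had 1 to 47 reads each over the 12 libraries and 178 reads together, of 3954136 reads of the family.

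Within the family, 5 of the 20 members with a mean of at least 10 CPM in a group (Mup7, Mup12, Mup15, Mup17 and Mup18) took shares of the reads that did not overlap between any of the groups. That count has no like share over other genes beside it, and a change in 1 abundant member shifts the shares of all. By reads, Mup3 made up 50.8 ± 3.29% of the family in Fenofibrate, 44.2 ± 4.17% in HFD and 41.5 ± 4.8% in Control libraries, and Mup7 made up 14.3 ± 5.53% in Fenofibrate, 23.0 ± 0.258% in HFD and 29.0 ± 2.38% in Control libraries (SD, n = 4 each). The range of Mup7 was 8.77 to 20.3% in Fenofibrate, 22.9 to 23.4% in HFD and 25.4 to 30.4% in Control libraries, so that no group overlapped another. Mup17 made up 0.978 ± 0.208% in Fenofibrate, 3.27 ± 0.973% in HFD and 0.207 ± 0.0221% in Control libraries, again without overlap. Mup20 took 20.8 ± 5.79% in Fenofibrate, 13.6 ± 0.966% in HFD and 16.2 ± 1.36% in Control libraries, where Fenofibrate overlapped both other groups. Per kilobase of merged exons, Mup3 had the highest mean level in each group (4814 CPM per kb in Fenofibrate, 12436 in HFD and 7427 in Control libraries). Mup7 (1548 CPM per kb in Fenofibrate, 6702 in HFD and 5427 in Control libraries) stood below Mup20 in Fenofibrate libraries (2153) and above it in HFD (4420.0) and Control libraries (3375). In these shares no test was made, and reads shared between copies can shift them.

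**Figure D4:**
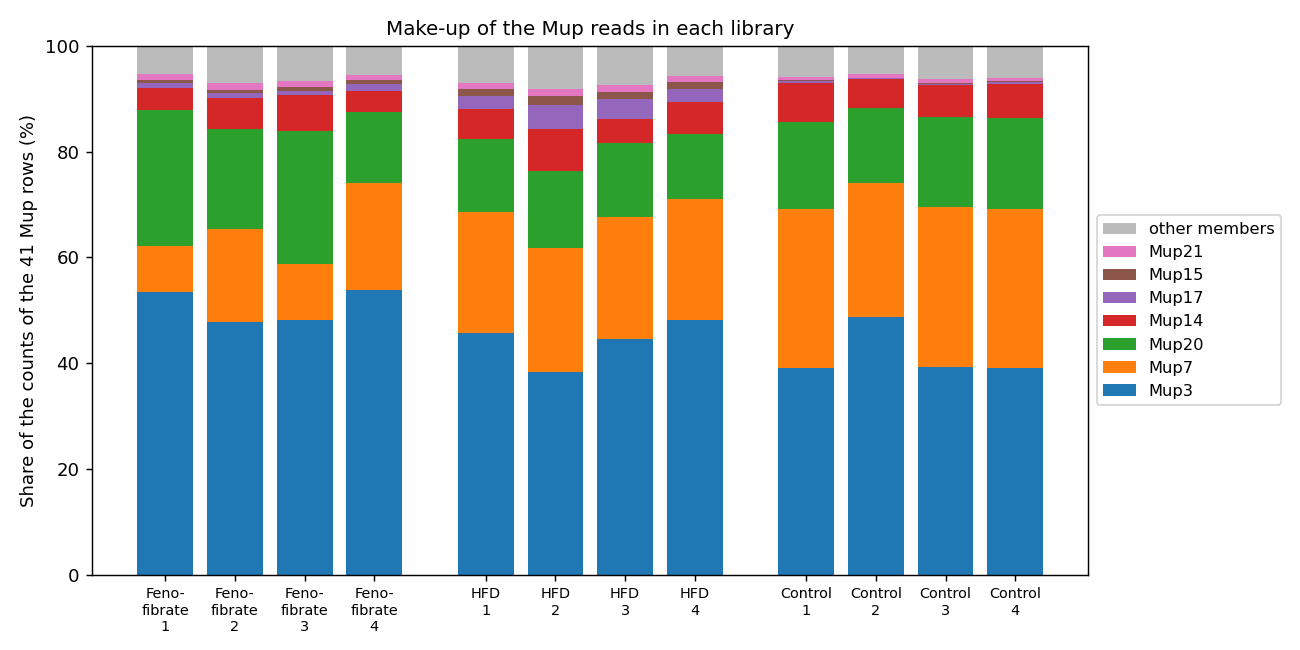
Share of the reads of all 41 Mup rows (y axis, %) taken by 7 genes and by the other members together (stacked bars), in each of 12 libraries. Mup3 is the largest part throughout, Mup7 is smallest in Fenofibrate libraries (8.77 to 20.3%), and Mup17 is visible in HFD libraries (2.44 to 4.47%) and thin elsewhere.

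The counts of other genes that follow stand against the shares of all tested genes: 6.88% higher and 6.59% lower in Fenofibrate over HFD, and 6.13% higher and 6.64% lower in HFD over Control. Of 15 listed genes of growth hormone and STAT5 signalling, which drives Mup transcription, all tested, 1 was higher and 2 were lower in Fenofibrate against HFD libraries, and 1 was higher and 1 lower in HFD against Control libraries. Without Fenofibrate libraries 1 and 3 none of the 3 calls over HFD remained in this list, nor any of the calls over HFD among the neighbours of the cluster, the lower regulators, the lower lipocalins and the lower female-biased genes described next. Leaving out 1 library gave 0 to 1 higher and 1 to 3 lower over HFD (fewer without Fenofibrate library 1, 3 or 4 or HFD library 1 or 4), and 1 to 2 higher and 1 to 2 lower with the diet (more without Control library 3 or 4 or Fenofibrate library 2). Ghr, the growth hormone receptor, averaged 343 ± 63.5 CPM in Fenofibrate, 577 ± 37.3 CPM in HFD and 346 ± 25.3 CPM in Control libraries. It fell with fenofibrate over HFD (-0.75 ± 0.12, adjusted p = 0.00242; 0.0551 without Fenofibrate libraries 1 and 3) and rose with the diet (0.74 ± 0.12, adjusted p = 0.00126). Socs2, a feedback inhibitor that STAT5 induces, averaged 20.7 ± 9.18 CPM in Fenofibrate, 16.2 ± 9.05 CPM in HFD and 57.1 ± 14.6 CPM in Control libraries, lower in HFD than in Control libraries (-1.81 ± 0.36, adjusted p = 0.00418).

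Of 19 listed male-biased liver genes other than Mups, 8 were lower and 0 higher in Fenofibrate against HFD libraries (edgeR; 0 higher at an unadjusted p under 0.05, by DESeq2 and by limma-voom), with a median log2 fold change of -0.43, and 4 were lower without Fenofibrate libraries 1 and 3. In HFD against Control libraries 4 were higher and 1 lower, with a median of -0.05. The lower one did not pass without Control library 1 or 3 or HFD library 1, 3 or 4, and 2 were lower without any 1 of the Fenofibrate libraries. Slco1a1, an organic anion transporter, averaged 197 ± 71.1 CPM in Fenofibrate, 481 ± 90.2 CPM in HFD and 239 ± 36.1 CPM in Control libraries. It fell over HFD (-1.29 ± 0.22, adjusted p = 0.00286) and rose with the diet (1.01 ± 0.22, adjusted p = 0.00663). Ugt2b1, a glucuronosyltransferase, averaged 201 ± 94.8 CPM in Fenofibrate, 585 ± 102 CPM in HFD and 696 ± 88.9 CPM in Control libraries and fell over HFD (-1.54 ± 0.27, adjusted p = 0.00333). Of 15 listed female-biased genes 8 were tested, of which 3 were higher and 1 lower over HFD, and 3 higher and 2 lower with the diet. The one lower over HFD did not pass without Fenofibrate library 1 or 3 or HFD library 1 or 4, and 1 was lower with the diet without HFD library 4. Cux2, a transcriptional repressor active in female liver, averaged 12.5 ± 5.86 CPM in Fenofibrate, 0.400 ± 0.198 CPM in HFD and 16.3 ± 5.35 CPM in Control libraries, which was higher over HFD (4.93 ± 0.47, adjusted p = 4.87e-05) and lower with the diet (-5.31 ± 0.47, adjusted p = 6.08e-06).

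Of 16 listed regulators of sex-biased transcription, 3 were higher and 2 lower over HFD (1 lower without Fenofibrate library 1, HFD library 1 or HFD library 2), and 4 higher and 3 lower with the diet. Cux2 is on this list and on the female-biased list, and it is counted in both. Leaving out 1 library gave 3 to 4 higher with the diet. Of the 4 higher, 1 was close to the threshold (adjusted p = 0.0447). It did not pass without Control library 1, 3 or 4, Fenofibrate library 2 or any 1 HFD library (0.0523 to 0.131). Of 11 listed lipocalins of liver and plasma outside the family, 10 were tested; 1 was higher and 2 lower over HFD, and 0 were higher and 3 lower with the diet (edgeR; 1 higher at an unadjusted p under 0.05, 0 by DESeq2 and by limma-voom). Leaving out 1 library gave 1 to 2 lower over HFD (1 without Fenofibrate library 3, HFD library 1 or HFD library 4) and 1 to 5 lower with the diet (1 without Control library 3, HFD library 1 or HFD library 2, and 5 without Fenofibrate library 2). In the chromosomal neighbourhood, 27 other rows lay within the span or 500 kb of it, and 17 were tested. Of these, 1 was higher and 2 lower over HFD, and 3 were higher and 1 lower with the diet, with median log2 fold changes of -0.17 and 0.16. Leaving out 1 library gave 1 to 4 lower over HFD (4 without Fenofibrate library 2, 3 without HFD library 3, 2 without Control library 1 or 2, and 1 without any other) and 3 to 5 higher with the diet (5 without Control library 2). Inside the span 6 rows were not Mup by name in the tables; one of them, Gm21320, averaged 108 ± 41.5 CPM in Fenofibrate, 201 ± 81.6 CPM in HFD and 220.0 ± 23.3 CPM in Control libraries. It is named Mup22 in GENCODE M21 and was not counted as a member. It was lower in Fenofibrate over Control (-1.03 ± 0.29, adjusted p = 0.0371), a call that did not hold when any 1 of Control libraries 2, 3 and 4 or Fenofibrate libraries 1, 3 and 4 was left out (adjusted p of 0.0671 to 0.108). HFD over Control was -0.13 ± 0.29 (adjusted p = 0.821). Its log2 fold change was -0.90 ± 0.29 over HFD (adjusted p = 0.0511; 0.00596 without HFD library 3 and 0.0138 without Fenofibrate library 2).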

How the data were processed

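Values were the authors' raw counts per Ensembl gene, per the file headers, in 2 deposited tables that both hold the 4 HFD libraries (0 cells differed). HISAT2 2.0.5, StringTie 1.3.2d and HTSeq 0.6.0 are named in the submitters' processing notes, without settings; the strand setting and annotation release were not stated there. The notes name mm8 and mm9, but all 41 Mup positions match GRCm38 (GENCODE M21). The tables were joined by identifier, with a gene missing from a table set to 0; no row lacked a gene name and 0 per-sample columns were left unassigned. The deposited fold changes and p-values were not used.

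Genes passing filterByExpr were scaled by TMM and fitted with edgeR 4.0.16 (R 4.3.3), with 1 coefficient per group over all 12 libraries and a prior count of 0.125; SE is the absolute log2 fold change over the root of F. The common biological coefficient of variation was 0.155. The test was checked on simulated counts. All 18 within-group pairs differed beyond counting noise (chi-square of 14.7 to 41.2 per gene). Depth was 15797016 to 18514481 counts per library. Family totals are shares of raw counts; marker sums are CPM without TMM. Alternatives used DESeq2 1.42.0, limma-voom (limma 3.58.1), other scaling and filters, a replicate block and left-out libraries.

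The members and lists were chosen with earlier results of these data known. Members of at least 10 CPM in a group were named with all values, the others by counts; from each list the most abundant genes that passed, up to 4 per comparison, could be named; 1 listed gene is not reported singly here. Copies were classed by coding identity (97% or more), since no protein sequences were at hand.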

Additional observations from a re-analysis of the deposited data

Results flagged for a closer look

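Genes and some family shares and marker sums, in 195 groups of 4 libraries, were examined for a library that stood apart from the other 3. Dixon's test at the 95% level was used. Chance flags about 1 group in 20, and 9 were found. Not every share and sum is covered by the 9. HFD library 1 also lay far from the other HFD libraries in its endothelial sum (110 CPM, against 212 to 229 CPM). The same held for its peripheral share (1.98%, against 1.61 to 1.66%). Among the members with a mean of at least 10 CPM in a group there were 2. Mup1 was at 62.2 CPM in HFD library 4, against 95.3 to 99.3 CPM in the other HFD libraries. Mup3 was at 6605 CPM in Control library 1, against 8307 to 8418 CPM in the others of its group. Fenofibrate library 1 stood apart in its sum of pancreatic acinar markers (2188 CPM, against 9.02 to 13.9 CPM in the rest of its group). The other 6 were genes of the lists. Cyp2b9, a female-biased cytochrome P450, was at 36.8 CPM in HFD library 3 (2.43 to 7.88 CPM in the others) and at 0.497 CPM in Control library 4 (0.0648 to 0.124 CPM). Control library 3 stood apart in Lcn2 (12.2 CPM, against 4.02 to 5.22 CPM), in Orm2 (30.5 CPM, against 10.9 to 12.3 CPM) and in Hao2 (0.124 CPM, against 0 in the others). C8g was at 278 CPM in Control library 1 (356 to 372 CPM in the others).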

How the results depend on the processing

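The direction of the family total stayed in every alternative: -1.93 to -1.06 for Fenofibrate over HFD, 0.61 to 0.74 for HFD over Control and -1.29 to -0.38 for Fenofibrate over Control, with -1.62 to -1.26, 0.61 to 0.74 and -0.93 to -0.58 when 1 library was left out. Restricting the total to rows with under 50% of their 100-base windows unique, chosen after seeing the data, moved it to -1.93 over HFD and -1.29 over Control; with the other rows it was -1.14 over HFD and -0.43 over Control.

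Members lower in Fenofibrate against HFD numbered 25, and 23 to 25 without 1 library, but 14 without Fenofibrate libraries 1 and 3, a fit with fewer samples. Members higher in HFD against Control numbered 14 (10 to 15 over all alternatives). With a mean of at least 1 CPM, 22 were lower over HFD and 11 higher with the diet. For Fenofibrate against Control, 8 were lower (5 to 13 without 1 library; 13 with no filter on low counts, where Mup2, Mup8, Mup10, Mup20 and Mup-ps19 passed too; 3 without Fenofibrate libraries 1 and 3; 3 at an adjusted p under 0.01). There 1 was higher, Mup17, and 2 by DESeq2, with no filter, with the replicate block, or without Fenofibrate libraries 1 and 3 (1 to 2 without 1 library). The second was Mup-ps12, which had enough reads only in HFD libraries, so it is a description and no added call. The cause of these changes in count was not tested.

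Signs turned only for rows that had not passed. Without Fenofibrate libraries 1 and 3, Fenofibrate over Control was 0.21 for Mup19, 0.33 for Mup21, 0.43 for Mup-ps7 and 0.11 for Mup-ps20, and Fenofibrate over HFD was 0.0928 for Mup-ps16 and 0.0703 for the neighbour Gm12909. By limma-voom Mup12 was 5e-04 for HFD over Control. Leaving out 1 library gave -0.34 to 0.0753 for Mup1, -0.16 to 0.18 for Mup12 and -0.14 to 0.52 for Mup-ps16 in HFD over Control, -0.15 to 0.0576 for Mup-ps16 and -0.066 to 0.0695 for Gm12909 in Fenofibrate over HFD, and, in Fenofibrate over Control, -0.10 to 0.30 for Mup-ps13, -0.18 to 0.49 for Mup-ps16, -0.65 to 0.42 for Mup-ps7 and -0.34 to 0.13 for Mup21.

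Replicate numbers did not pair the libraries (r of -0.18 to 0.14 between libraries of the same number, over 0.1 in 3 of 12 pairs). With the replicate number as a block, 2 members were higher in Fenofibrate against Control, Mup17 and Mup-ps12, the second of which is a description only. The other counts of members stayed within 1.5 times. The block ended the calls of Mup16 over Control (adjusted p = 0.0538) and of Mup2 with the diet (0.0529), and Mup9 (0.0414) passed over Control. The 14 untested members had too few reads to be tested, and the reason for this was not tested.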
